A study of Drosophila melanogaster with 2 samples.

Results

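The genes described here encode the core proteins of the 3 small RNA branches of the fruit fly Drosophila melanogaster. Argonaute proteins carry a short guide RNA and use it to find matching transcripts, and Dicer enzymes cut double-stranded RNA into such guides. In flies AGO2, Dcr-2 and the double-stranded RNA-binding protein R2D2 act in the small interfering RNA (siRNA) branch, which silences viruses and transposons. AGO1, Dcr-1 and the Dicer partner Loquacious (loqs) act in the microRNA branch, although an isoform of Loquacious also serves Dcr-2. The PIWI-type Argonautes piwi, aub and AGO3 act with PIWI-interacting RNAs (piRNAs), which are made without Dicer and silence transposons in the gonad.

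The data were anti-GFP chromatin immunoprecipitation sequencing from whole embryos aged 0 to 24 h of the strain CG4360-GFP. These flies carry a transgene for a fusion of the zinc finger protein CG4360 with enhanced green fluorescent protein (eGFP). There was 1 group with 2 biological replicates, and no group lacking the tagged protein was analysed here, so signal that would appear without it cannot be told apart. Whole embryos hold every cell type and all embryonic stages, so soma and germ line cannot be told apart either. A site occupied in few cells and a weakly occupied site in many cells likewise cannot be told apart, and the labels do not name the promoter of the fusion.

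All 9 genes, of 13968 protein-coding genes in the Ensembl annotation, were found by their symbols, with 3 genes in each branch. Calls were taken when the summit, the highest position of the call, lay in the gene or within 2 kb of it. The deposited lists come in pairs: ranked calls, and thresholded calls that reached an irreproducible discovery rate (IDR, a measure of how well ranks repeat between data sets) of at most 0.01. Ranked calls absent from the thresholded list are called relaxed. In the conservative list 176 of them on the chromosome arms had nonetheless reached this IDR. The conservative list compares the replicates with each other, the pooled list was also made from the alignments of both, and each replicate also has its own list. In the conservative list 7 of 5697 thresholded calls and 114 of 128147 ranked calls belonged to the 9 genes. The signal value of a call is the authors' measure of its strength, on a scale that neither labels nor headers give. Levels were ranked within 1 list, and no test was made between branches, since genes are not replicates of a condition and neighbouring calls can share a peak.

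The call at AGO2 was the strongest at any of the 9 genes, and a CAA repeat lay under its summit. CAACAAC is a word that was frequent under the summits of this series, and the stretches below show it in capitals, or as its reverse complement GTTGTTG, with all other bases in lower case. They are 5′ to 3′ on the plus strand of release 6 (dm6), read from the RefSeq genome, and each shows a different way in which a called summit related to the word. The AGO2 stretch is the part of the exon under the summit that is coding in both transcripts that hold it (chr3L:15554290-15554472), the AGO3 stretch is the summit window, reaching 50 bp to each side, in an intron (chr3L:23580260-23580360), and the loqs stretch is the summit window of its strongest call (chr2L:13387374-13387474).
AGO2: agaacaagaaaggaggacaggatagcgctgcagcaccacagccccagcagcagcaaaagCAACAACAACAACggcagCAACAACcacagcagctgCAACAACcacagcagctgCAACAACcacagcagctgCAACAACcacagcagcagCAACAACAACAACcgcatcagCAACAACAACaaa
AGO3: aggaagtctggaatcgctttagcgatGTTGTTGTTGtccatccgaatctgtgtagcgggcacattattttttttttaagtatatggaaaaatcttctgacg
loqs: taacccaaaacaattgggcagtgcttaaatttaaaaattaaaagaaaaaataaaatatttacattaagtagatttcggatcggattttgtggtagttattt
The AGO2 stretch held 12 overlapping or spaced copies, the AGO3 window held 2 in a single run, and the loqs window held none.

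In the siRNA branch, AGO2 had 1 thresholded call in each list, and no other siRNA gene had one in the conservative list. AGO2 (FBgn0087035, 3L:15554113-15561042, plus strand) encodes the Argonaute that cleaves targets matched to siRNAs. Its call spanned 3L:15554059-15554705 with the summit at 15554429. The signal value was 3402 in the conservative list, 1978 in replicate 1 and 1405 in replicate 2. By signal value the call held rank 2 in the conservative list and in replicate 1, and rank 3 in replicate 2. Replicate 1 was 1.41 times replicate 2, against a median of 1.16 over 5668 conservative calls with both values (5th to 95th percentile 0.62 to 1.98). The AGO2 ratio thus lay within that range. By the strongest call in the gene or within 2 kb, AGO2 ranked 2 of the 13968 genes, a place it shared with CrebA, a transcription factor gene whose flank holds the same summit.

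**Figure D1:**
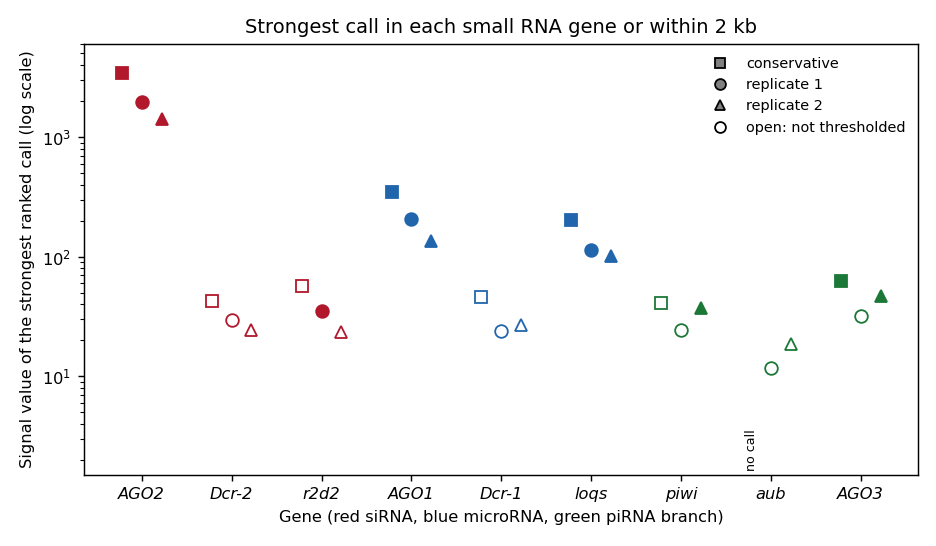
Signal value of the strongest ranked call in each gene or within 2 kb (y axis, log scale) in the conservative list (squares), replicate 1 (circles) and replicate 2 (triangles). Filled symbols passed the threshold; AGO2 lies between 1405 and 3402, AGO1 and loqs between 100.97 and 345.7, and every other gene at or below 62.2, with no call for aub in the conservative list.

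The AGO2 summit lay 316 bp downstream of the gene's start, in coding sequence. In replicate 1 it lay at 327 bp and in replicate 2 at 316 bp. In transcript FBtr0075560 it fell in exon 1 and in FBtr0075559 in exon 2, and in both it lay 43 bp before the end of the exon. The transcript FBtr0331933 starts further downstream and does not contain this exon. Of 31 codons read in the summit window, 14 were CAA and 9 were CAG, both of which encode glutamine. All 8 copies of the word in the window began at the first position of a codon, so the DNA word and the glutamine-rich coding repeat were the same bases here.

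Among 5692 conservative calls on the chromosome arms, 1.16% had at least 8 copies of CAACAAC within 50 bp of the summit, as AGO2 did. The longest unbroken CAA run there was 13 bp, which 13.6% of conservative calls reached. The number of copies, rather than the length of a single run, was thus the rarer feature of this summit.

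AGO2 held a second array of the word that carried no call. From 2958 to 3648 bp from the gene's 5′ end, 11 copies were spaced exactly 69 bp apart (3L:15557068-15557826), and 0 ranked summits of the conservative list fell inside. The closest ones lay 2865 and 3799 bp from the 5′ end, with signal values of 38.8 and 16.9, and replicate 1 ranked a relaxed call of 2.46 at 2969 bp. This array was chosen for description after the positions had been seen. The array is coding in the transcripts that hold the called exon, and AGO2 is known for glutamine-rich repeats near its amino terminus. The later 69-bp units differed from the first at 0 to 37 positions, and 4 of them were identical to it. Of 710 windows of 50 bases in the array, 598 (84.2%) occurred again in the genome, against 8 of 598 windows (1.34%) under the AGO2 call. The labels do not say how reads from such repeats were placed, and the part of repetition in the missing call was not tested.

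**Figure D2:**
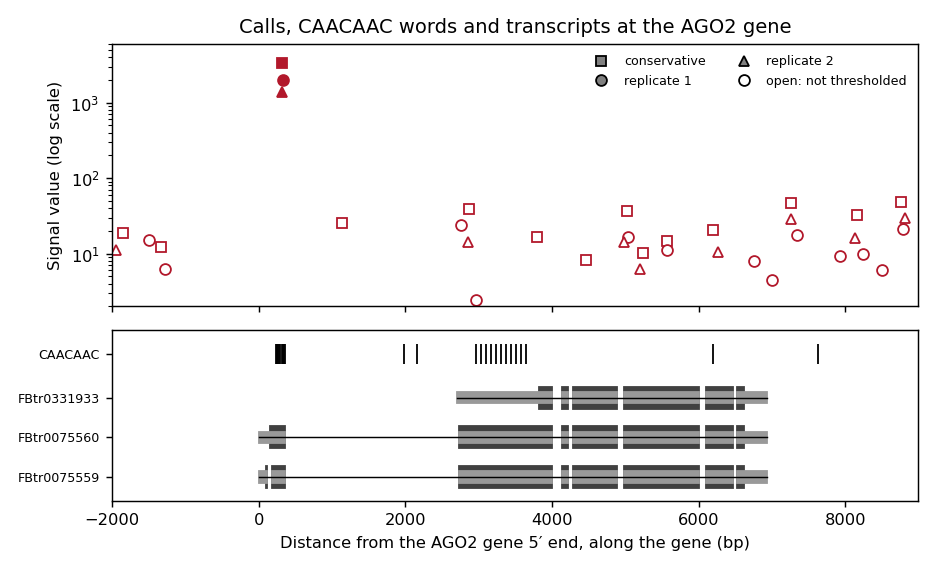
Calls (top, signal value, log scale) and CAACAAC words and transcripts (bottom; thick boxes coding, thin boxes untranslated exons) by distance from the AGO2 5′ end in bp. The call at 316 to 327 bp stands over the first cluster of words, and the spaced array from 2958 bp has no filled symbol.

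Dcr-2 and r2d2 had weaker calls. Dcr-2 (FBgn0034246, 2R:17574979-17581525, minus strand), the Dicer that makes siRNAs, had no thresholded call in any of the 4 lists. Its strongest ranked call had a signal value of 42.7 in the conservative list, in coding sequence 549 bp from the start, and the strongest were 29.5 in replicate 1 and 24.3 in replicate 2. The 2 replicate calls lay at different places, 496 bp and 6600 bp from the start, so they did not mark a shared site. The nearest conservative summit lay 6359 bp beyond the 3′ end and 112 bp from a start of POSH.

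The r2d2 gene (FBgn0031951, 2L:7800147-7802098, plus strand) encodes the partner that helps Dcr-2 load siRNAs into AGO2. Replicate 1 had a thresholded call there, with a signal value of 35.3 at rank 5638 of 90253 ranked calls. Its summit lay 88 bp upstream of r2d2 and 1 bp from a start of the neighbouring gene Herp. In replicate 2 the matching call was relaxed, with a signal value of 21.3. In the conservative list the call reached 57.4 with a −log10 IDR of 1.24, short of the threshold of 2. The site was therefore called in 1 replicate and not by the pair, and no word lay in its window. The nearest conservative summit lay 9854 bp beyond the 3′ end, with a signal value of 667.4, and was 514 bp from a start of LanB1.

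In the microRNA branch, AGO1 and loqs had calls, and Dcr-1 had none. These calls lay between 683 and 12109 bp from the genes' own starts, and the strongest of each gene was closer to a start of another gene. AGO1 (FBgn0262739, 2R:13943387-13958089, minus strand) encodes the main microRNA-binding Argonaute. Its strongest call had a signal value of 345.7 in the conservative list, 205.9 in replicate 1 and 136.2 in replicate 2. It lay 1471 bp beyond the 3′ end of AGO1 and 194 bp from a start of shot, the gene of a cytoskeletal cross-linker. Its window held 2 copies of CAACAAC. It was thus assigned to AGO1 by the 2-kb flank alone. Replicate 1 had a further thresholded call of 69.5 there, 21 bp from a start of shot, with no copy of the word.

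The other conservative calls of AGO1 lay inside the gene and were weaker. One in a 5′ UTR, 780 bp from a start, had a signal value of 78.5, with 35.2 in replicate 1 and 37.5 in replicate 2, and its window held 1 copy of the word. One in coding sequence, 3282 bp from a start, had a signal value of 59.0, with 31.6 in replicate 1 and 30.04 in replicate 2, no copy of the word, and no thresholded call in the pooled list. Neither of these 2 calls passed in the list of either replicate alone. Replicate 1 also had a thresholded call of 54.3 in an intron, 614 bp from a start, with 1 copy of the word. In replicate 2 the matching call stood at 20.7. That intronic call stood at 65.7 in the conservative list without passing, above the coding call that did pass, so the threshold did not follow the signal value alone.

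Loquacious, the partner of Dcr-1, had 2 conservative calls. At loqs (FBgn0032515, 2L:13382652-13385671, plus strand) the stronger one had a signal value of 203.7 in the conservative list, 112.9 in replicate 1 and 100.97 in replicate 2. It lay 1753 bp beyond the 3′ end and 112 bp from a start of Ing5, in a window with 24.8% G and C and no copy of the word. The weaker one had a signal value of 80.5, 39.1 in replicate 1 and 42.9 in replicate 2, and lay 683 bp upstream of loqs inside beta'COP, a coat protein gene. It passed in replicate 1 and not in replicate 2. Neither call lay within the transcribed part of loqs.

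Dcr-1 (FBgn0039016, 3R:22734007-22741091, minus strand), which cuts microRNA precursors, had no thresholded call in any list. Its strongest ranked call, in coding sequence 2545 bp from the start, had a signal value of 45.8 in the conservative list, 21.9 in replicate 1 and 26.8 in replicate 2. The replicate summits lay 2556 bp and 2543 bp from the start, so both replicates held a call at about the same place, and the −log10 IDR of the pair was 1.45. Over all protein-coding genes 51.1% had a stronger call, so Dcr-1 stood near the middle. The nearest conservative summit lay 4638 bp beyond the 3′ end, with a signal value of 29.6.

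**Figure D3:**
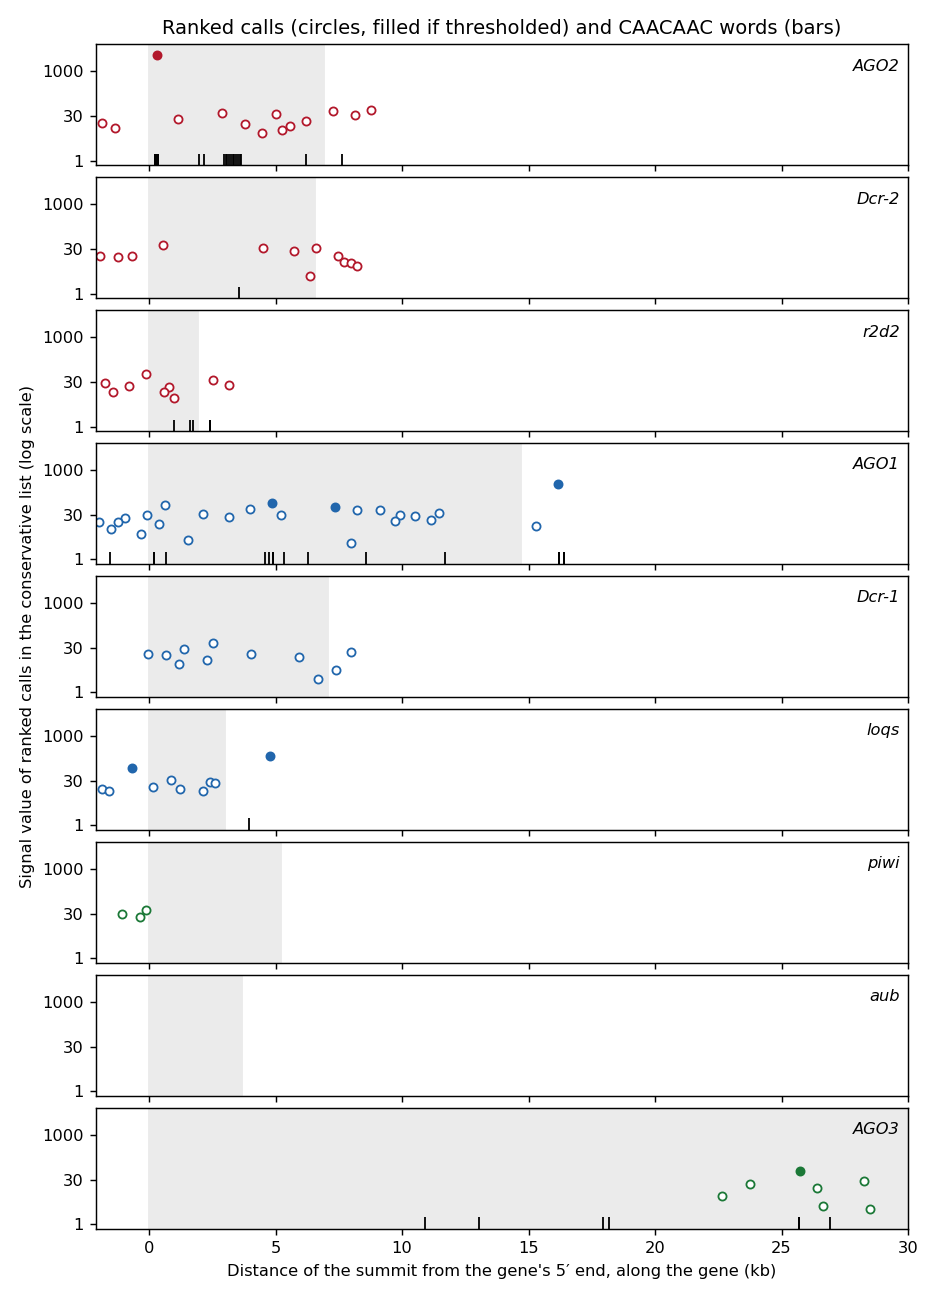
Signal value of ranked calls in the conservative list (circles, log scale, filled if thresholded) and positions of CAACAAC (bars) against the distance from each gene's 5′ end in kb, with the gene shaded. Only the first part of the long AGO3 gene is drawn; the filled circle closest to a 5′ end is that of AGO2.

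In the piRNA branch, 1 thresholded call was present in the conservative list, and it lay deep inside AGO3. AGO3 (FBgn0250816, 3L:23554593-23689640, plus strand) encodes the PIWI protein that pairs with Aubergine in the ping-pong cycle of piRNA amplification, and it spans 135048 bp. The call had a signal value of 62.2 in the conservative list, 32.0 in replicate 1 and 46.6 in replicate 2. It passed in replicate 2 and not in replicate 1, and its ratio of 0.69 was within the 5th to 95th percentile of all calls. The summit lay in an intron 24385 bp from the gene's nearest start, and its window held 2 copies of the word on the opposite strand. Ranked calls were sparse in AGO3, at 0.216 per kb with 30 in all, against a median of 1.22 per kb over protein-coding genes of all lengths. No median was taken over genes of similar length. In the conservative list piwi and aub were also sparse, at 0.326 and 0 per kb. In replicate 1 piwi, at 0.868 per kb, was near the median of 0.892. In replicate 2 it was at 0.326, against 0.842. The siRNA gene Dcr-2 had 0.379 per kb in replicate 1 and 0.284 in replicate 2. Sparse calls were thus not particular to the piRNA branch.

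The other PIWI genes had no thresholded call in the conservative list. The piwi gene (FBgn0004872, 2L:10982205-10987420, minus strand) encodes the nuclear PIWI protein that silences transposons at the level of transcription. It had 3 ranked calls in the conservative list, the strongest of 41.1 at 107 bp upstream of its start. The replicate 2 call matched to it, of 20.04, lay 45 bp upstream of piwi. The matched replicate 1 call, of 21.6, lay 372 bp upstream and 14 bp from a start of CG12253, and it was also matched to another conservative call, so the replicates did not share a summit there. The pooled list held 8 ranked calls, and 4 of them lay inside the gene. The strongest of these, of 48.3, was in an intron 1065 bp from the start and was relaxed. Replicate 2 alone had a thresholded call, with a signal value of 37.3, at 1960 bp upstream of piwi and 21 bp from a start of TTLL4A. Replicate 1 had a relaxed call of 24.6 in an intron, 1047 bp from the start, with a −log10 IDR of 1.99. No ranked call of the conservative list lay inside the piwi gene, and the nearest conservative summit lay 7037 bp beyond its 3′ end, 125 bp from a start of abo.

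Aubergine, the cytoplasmic PIWI protein that cleaves transposon transcripts, had the fewest calls in the conservative list. At aub (FBgn0000146, 2L:10997819-11001476, minus strand) the conservative and pooled lists held 0 ranked calls. This was so for 7.07% of protein-coding genes in the conservative list and 6.92% in the pooled list. Replicate 1 had 1 relaxed call of 11.8, and replicate 2 had 4, up to 18.6. The nearest conservative summit lay 2697 bp upstream, at a signal value of 67.8 and 16 bp from a start of RpL9, a ribosomal protein gene.

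Set against genes of similar span, the conservative count of members with a call was near the background. In the conservative list 4 of 9 genes had a thresholded call, against 31.2% of protein-coding genes. Longer genes can hold more calls. Of the 8 members other than AGO3, 3 had a call, against 36.6% of genes within their range of spans, 1952 to 14703 bp. AGO3 had a call, as did 61% of genes at least as long. In the pooled list 4 of 9 had a call, against 33.5%, in replicate 1 it was 4 of 9, against 26.6%, and in replicate 2 it was 5 of 9, against 22.4%. With span considered, the conservative count therefore did not set these genes apart. In each list the share of members was above that of all genes, most so in replicate 2. In replicate 2, AGO1, loqs and piwi counted through flank calls alone, each closer to a start of another gene (shot, Ing5 and TTLL4A). The shares of all genes count flank calls in the same way. Spans were compared in the conservative list only. AGO2, AGO1 and loqs had a call in all 4 lists, and Dcr-2, Dcr-1 and aub in none.

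At transcript starts the count was near the background too. A summit within 500 bp of the gene's own start was present for AGO2 alone in the conservative list, 1 of 9 genes against 15.9% of protein-coding genes, and in the pooled list, against 17.1%. In replicate 1 AGO2 and r2d2 had one, 2 of 9 against 13.2%, and in replicate 2 AGO2 alone, against 10.6%. What stood out at AGO2 was the signal value of the call, which ranked 2 of 2353 conservative calls within 500 bp of any start.

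By branch, the conservative list gave 1 of 3 siRNA genes, 2 of 3 microRNA genes and 1 of 3 piRNA genes with a call. The single siRNA call had a signal value of 3402, the 5 microRNA calls had 59.0 to 345.7 and the single piRNA call had 62.2. Each of the siRNA and piRNA values came from 1 gene. In replicate 1 the thresholded siRNA values, 35.3 at r2d2 and 1978 at AGO2, lay on both sides of the microRNA range of 39.1 to 205.9. The strongest ranked calls of Dcr-2, Dcr-1 and piwi, in the siRNA, microRNA and piRNA branch, were 42.7, 45.8 and 41.1 in the conservative list. These were below the median of 48.9 over protein-coding genes with at least 1 ranked call. Medians of the replicate lists were likewise taken over genes with a ranked call. In the replicate lists the order was not the same. Dcr-2, at 29.5, was above the replicate 1 median of 26.9, and piwi, at 37.3, was above the replicate 2 median of 26.8.

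The word followed the calls in part. CAACAAC lay within 50 bp of the summit in 4 of 7 thresholded calls, against 45.1% of all conservative calls. By branch it was present at the siRNA call, at 2 of 5 microRNA calls and at the piRNA call. Among the 107 relaxed calls of the 9 genes, 4 had the word, against 4.34% of all relaxed calls. Both counts were near the background, so the members held the word at their summits about as often as the rest of the series. Over all conservative calls, summits within 500 bp of a start had the word in 37% and those farther away in 50.9%, and AGO2 was of the first kind. The share also rose with the signal value, from 13.7% in decile 1, the lowest, to 87.7% in decile 10. The AGO2 call was in decile 10, where most calls had the word.

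Copies of the word without a call were common. Within the genes and their 2-kb flanks there were 94 copies, of which AGO3 held 41, AGO2 27, AGO1 17, r2d2 7 and Dcr-2 and loqs 1 each. None lay in or near Dcr-1, piwi or aub. AGO2 had 2.47 copies per kb, against a median of 0.226 and a 90th percentile of 0.749 over protein-coding genes. With neighbours at most 50 bp apart joined, the 94 copies formed 71 clusters, and 4 of these had a conservative summit within 50 bp. Most clusters at these genes thus carried no call. Most clusters in the genome carried none either, with 2.73% of single copies and 16.6% of clusters of 2 to 3 copies called. The uncalled clusters therefore did not set these genes apart.

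In the genome the share of clusters with a call rose with their size. At the 9 genes the larger classes held too few clusters to show such a rise. The split by size was made with the positions already known. Of 61 single copies at the 9 genes 0 had a conservative summit within 50 bp, against 2.73% of single copies in the genome. The 61 include the 11 copies of the uncalled AGO2 array, whose spacing of 69 bp exceeds the 50 bp used for joining. Of 8 clusters of 2 to 3 copies 3 had one, against 16.6% in the genome. The members had 1 cluster of 4 to 7 copies, which was not called, against 36.5% called in the genome, and 1 of 8 or more, which was called, against 56.9%. The cluster of 12 at AGO2 was the called one. The uncalled cluster of 4 lay 2399 to 2408 bp from the 5′ end of r2d2, beyond its 3′ end. Each replicate had a relaxed call with 4 copies in its window there, of 21.3 in replicate 1 and 23.5 in replicate 2, with −log10 IDR of 0.15 and 0.13. Both replicates thus ranked a weak call at that cluster. The call matched to them in the conservative list, of 35.4, had its summit farther off, with no copy in its window. The −log10 IDR of the pair was 1.28 there, short of the threshold of 2.

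**Figure D4:**
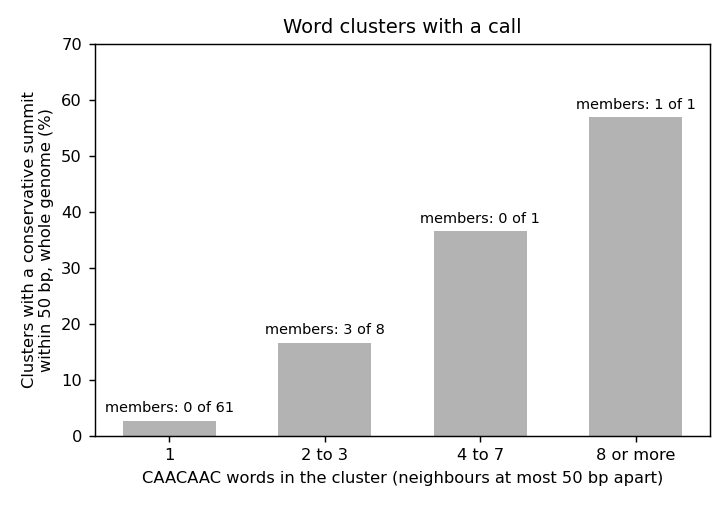
Share of CAACAAC clusters with a conservative summit within 50 bp in the whole genome (bars, %) by number of copies, with the count at the 9 genes written above each bar. The share runs up from 2.73% for single copies to 56.9% for clusters of 8 or more.

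Near starts the word and the call met at the upstream start of AGO2, and not at its downstream start or at AGO1. Of the 9 members, AGO2 and AGO1 had the word within 500 bp of a start, with 16 and 2 copies, and AGO2 had a conservative summit in that range. The other 7 had neither in the conservative list. Over all protein-coding genes with CAACAAC in that range, 33.9% had a conservative summit there, against 8.82% of genes without it. The closest word to a start of AGO1 lay 188 bp away, and that of AGO2 239 bp away. Of the 16 AGO2 copies, 12 lay 239 to 353 bp from the gene's 5′ end, in the called region. The others lay 248 to 455 bp from the downstream start, that of FBtr0331933. They belong to the uncalled array, and no conservative summit lay within 500 bp of that start.

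**Figure D5:**
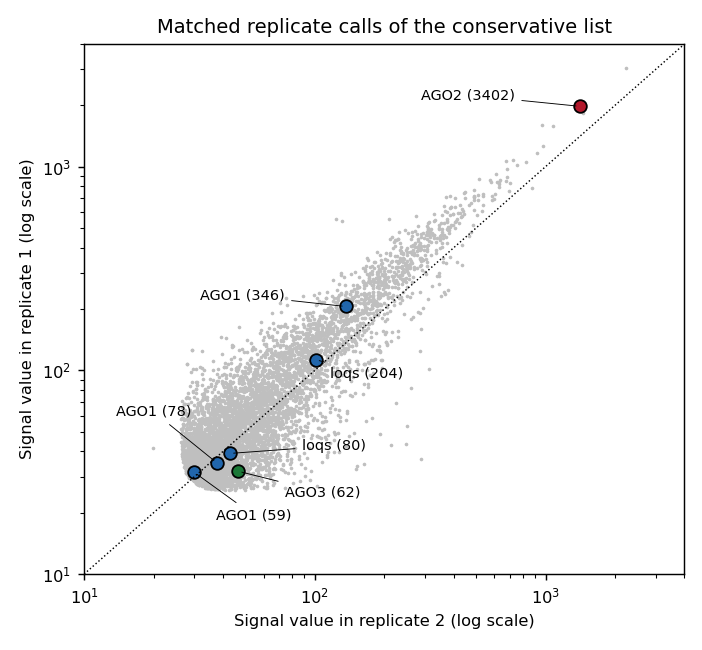
Signal value in replicate 1 (y axis) against replicate 2 (x axis), both on log scales, for the calls matched to each conservative call (grey) and to the 7 calls at the 9 genes (coloured, with the conservative value in brackets). The dotted line marks equal values; ratios of the members' calls run between 0.69 at AGO3 and 1.51 at AGO1.

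Other genes of the small RNA pathways, from a list of 43 symbols, had calls in each list, at a rate that varied between the lists. Of 42 genes found, 16 (38.1%) had a conservative call in the gene or within 2 kb, against 31.2% of protein-coding genes. In replicate 1 alone 13 of them had one, against 26.6%, and in replicate 2 alone 8, against 22.4%. A start with a summit at most 500 bp away was found for 3 of them (7.14%), against 15.9%. The median of the strongest ranked call was 51.1 over the 42 genes and 48.9 over protein-coding genes with at least 1 ranked call. Of the 10 siRNA and microRNA genes 5 had a call and none at a start. They were trsn, a subunit of the nuclease that removes cut strands (423.4), pasha, the partner of Drosha (304.8), Fmr1, an RNA-binding protein of the silencing complex (174.8), Nbr, a microRNA-trimming exonuclease (109.3), and Tudor-SN, a nuclease found in that complex (52.9). Of these 5, the calls of trsn and Fmr1 had the word, with 3 and 2 copies. Fmr1 alone of these 5 had a call closest to its own start.

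Of the 32 piRNA genes 11 (34.4%) had a call, and 3 had one at a start. These were papi, a Tudor protein of the mitochondrial surface (206.4), cuff, a factor of piRNA cluster transcription (110.8), and Panx, which links Piwi to silencing (104.9 at the start and 129.7 at its strongest call). The summit of cuff, 342 bp from its own start, was closer to CG13185. Of the 11 genes, papi and rhi alone had a strongest call closest to their own start. The papi summit, 349 bp from its start, had no copy of the word, and cuff had 1. The other piRNA genes with a call were tapas (176.9), shu (103.4), rhi, the cluster-binding HP1 protein (96.7), tud (82.3), egg, a histone methyltransferase (74.7), mael (70.9), vas, an RNA helicase (66.4), and vls (52.7). None of the 42 genes reached the AGO2 value of 3402, and the highest was trsn at 423.4.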

How the data were processed

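The values were peak calls on dm6 from anti-GFP immunoprecipitation of chromatin sheared to 200 to 800 bp, per the labels. The authors deposited thresholded and ranked lists for each replicate and for 2 combinations of both. The deposited signal value has no stated scale, and the number of reads is unknown. The deposited score of each call was not analysed. The deposited ranked lists give −log10 of the global IDR, and every thresholded call had at least 2. The peak caller was not given in the sources used here, nor was the aligner. In the conservative ranked list 90076 of 128147 calls carried coordinates from the replicate 1 list in the columns of the first data set, so replicate values were read from each replicate's own list.

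Summits on the major arms were placed against Ensembl release 115 (BDGP release 6). Distances to a start use any annotated start of the gene. CAACAAC or GTTGTTG was searched within 50 bp of the summit. Overlapping copies were counted separately. The 9 genes, the pathway list and the alternatives were chosen with earlier results of these data known. All thresholded calls at the 9 genes are named, with the strongest ranked call of each gene in the conservative list. In the pathway list 42 of 43 symbols matched, 1 by a synonym, and boot was left out. Results are descriptions with no p-values. The counting of words and runs, the summit window and the merging of summits were tested on made-up sequences and summits. The other steps were not tested in this way. Calculations used Python 3.11.15, numpy 2.4.6, pandas 2.3.3 and matplotlib 3.10.9.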

Additional observations from a re-analysis of the deposited data

How the results depend on the processing

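Over 16 results, 72 alternative values were computed, of which 45 stayed within the limits set and 27 moved. A reversal was not looked for. For AGO2 and most other members the pooled and conservative lists gave the same signal value, so that alternative could not move. The 4 genes with a call became 4 to 5 in a single replicate, 3 with a flank of 500 bp, 6 with 5 kb, and 3 at an IDR of at most 0.001. The share of all protein-coding genes was not computed at these flanks and this IDR limit, nor at the other start distances below. Counts at those settings, also in the pathway list, thus have no background beside them. The 1 gene with a summit at a start became 0 with a distance of 250 bp, since the AGO2 summit lies 316 bp away, 3 with 1000 bp, and 1 to 2 in a single replicate. With loqs placed in the siRNA branch, 2 siRNA genes and 1 microRNA gene had a call. In a single replicate the count was 1 to 2 for siRNA, 2 for microRNA and 0 to 2 for piRNA, and at an IDR of at most 0.001 it was 0 for piRNA. The word lay within 25 bp of 2 of 7 summits, and within 50 bp of 3 of 7 in replicate 1 and 3 of 5 in replicate 2. The AGO2 value was 1405 to 1978 in a single replicate. Replicate lists stem from fewer reads, so values of different lists are not on 1 scale. In the pathway list 3 genes with a summit at a start became 7 with 1000 bp and 3 to 4 in a single replicate, and 16 genes with a call became 8 to 13, the 8 in replicate 2 alone. No paired analysis was possible because there was 1 group. With 2 replicates and no reads, no error can be put on a single value beyond the pair of replicates.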
